A study of Penicillium oxalicum with 18 samples.

Results

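The comparison described here sets mycelium of a Penicillium oxalicum strain lacking vib1 on bran plus cellulose against mycelium of the same strain on N-acetylglucosamine (GlcNAc). Its members are 6 of the 18 libraries of the study, 3 for each medium, taken by the library titles. Penicillium oxalicum is a filamentous fungus that secretes plant-cell-wall-degrading enzymes. The labels name 2 strains, 114-2 as wild type and a vib1 deletion strain, and do not say how the deletion was made, whether it is 1 clone, or whether the libraries of a group came from separate cultures. All cultures, of both strains, were first grown for 24 h at 30 °C with 2% glucose and then moved for 24 h to the test medium. That medium held 1% bran with 1% microcrystalline cellulose, or 2% GlcNAc, or 2% glucose. The wild type on all 3 media and the deletion strain on glucose (3 libraries each) serve below to place the 6 libraries, the wild type on glucose only in levels set across all 6 groups.

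Vib1 is a transcription factor of the Ndt80 family, known in Neurospora crassa for its part in heterokaryon incompatibility, in the release of proteases and in cellulase production. In cellulolytic fungi the genes of secreted polysaccharide-degrading enzymes are in general low on readily used sugars and are induced on plant polymers, by soluble sugars released from them. GlcNAc is the monomer of chitin, a carbon and nitrogen source that fungi take up and phosphorylate. The table identifies genes by locus tags only, and 0 of its 9176 IDs matched the reference table, so no gene is given a name or a function. The tag of vib1 itself is therefore unknown here and the strain label is unchecked.

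The deposited table gives FPKM, a level scaled for the length of the gene model and for the number of mapped fragments. FPKM summed to between 1005268 and 1027449 in the bran plus cellulose libraries and to between 921337 and 945944 in the GlcNAc libraries. Read depth is unknown. Spearman correlations over the 8455 gene models tested were 0.981 to 0.989 between replicates of a medium and 0.830 to 0.832 between the media. Among all 18 libraries, the residual spread was widest in wild-type replicate 3 on bran plus cellulose (0.384 log2 units), and replicate 1 of the deletion strain on glucose came next (0.358), against 0.234 to 0.294 in the 6 libraries compared. Both stand apart below and enter the shared estimate of error.

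The change of medium altered the levels of most genes in the deletion strain, and the largest differences were on the side of bran plus cellulose. On the log2(FPKM + 1) scale, 5842 of 8455 genes differed at a limma adjusted p under 0.05 (69.1%), of which 2348 (27.8%) were higher and 3494 (41.3%) lower on bran plus cellulose than on GlcNAc. By at least 1 log2 unit 2182 differed (25.8%), 1129 higher (13.4%) and 1053 lower (12.5%). The sides parted as the difference grew: at 2 log2 units 495 were higher and 233 lower, at 4 units 134 and 30, and at 6 units 48 and 6. In bulk mycelium, fewer cells with a transcript and less of it per cell cannot be told apart.

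In 74.9% of all genes tested the 3 and the 3 libraries did not overlap, with 30.4% higher and 44.5% lower. The same held for 1115 of the 1129 higher genes and 1044 of the 1053 lower genes, which were chosen from these libraries. The median log2 difference of all genes was -0.147, so the balance of the sides depends on the scale. Median-ratio rescaling, which sets this median to 0.0, gave 2911 higher and 2843 lower calls, of which 1329 and 770 reached 1 log2 unit. With all libraries set to the same FPKM total, the calls were 2038 higher and 4017 lower, and 996 and 1333 of them reached 1 log2 unit. An alternative added after seeing the data, without both libraries that stand apart, left 1134 higher and 1056 lower genes past 1 log2 unit.

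**Figure D1:**
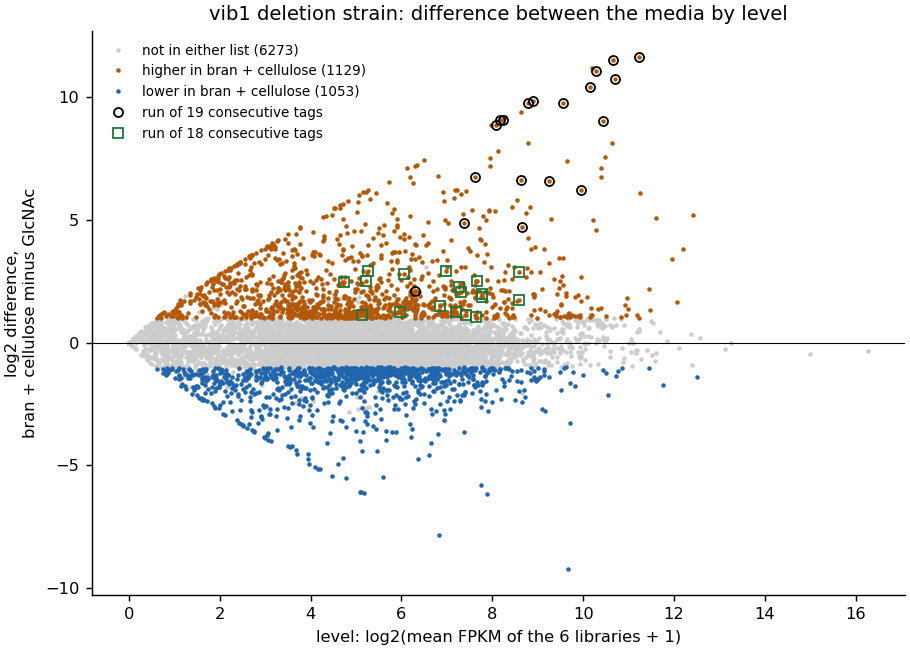
Log2 difference between bran plus cellulose and GlcNAc in the deletion strain (vertical axis) against the level, log2 of the mean FPKM of the 6 libraries plus 1 (horizontal axis), 1 point per gene tested. The 1129 higher and 1053 lower genes are coloured, and open symbols mark the runs of 19 and 18 consecutively numbered locus tags, of which the first holds 16 of the 48 genes higher by at least 6 log2 units.

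Abundant transcripts were more often higher on bran plus cellulose than on GlcNAc. Of 197 genes with a mean over 1000 FPKM in at least 1 of the media, 69 were higher by at least 1 log2 unit (35.0%, against 13.4% of all genes) and 19 lower (9.6%, against 12.5%). When genes were ranked by mean level over the 18 libraries and cut at the quartiles, 16.3% were higher and 17.0% lower in the lowest class (0.1 to 10.4 FPKM), and 14.8% and 9.6% in the highest (above 70.0 FPKM). All 3 bran plus cellulose libraries had over 1000 FPKM of 149 gene models, all 3 GlcNAc libraries of 91, and all 6 of 66. Genes entered the first of these counts through their level in the 6 libraries compared, so it is a description.

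The share of the FPKM held by the most abundant transcripts depended on how many were counted. The 10 most abundant gene models of a library held 15.60%, 16.05% and 15.83% of its FPKM on bran plus cellulose and 19.56%, 20.18% and 18.36% on GlcNAc. All 3 GlcNAc libraries lay above all 3 others (difference -3.54 percentage points; two-sided exact permutation p = 0.1, the smallest p that 3 against 3 allows). For the 100 most abundant the difference was 1.09 percentage points in the other direction (37.02% against 35.92%, two-sided exact permutation p = 0.2). Of the 10 gene models with the highest mean in each medium, 5 were the same. The pair of most abundant gene models, PDE_09831 and PDE_09832, is described because of its values and accounted for 9.07% to 9.98% of the FPKM on bran plus cellulose and 12.23% to 14.22% on GlcNAc. The other 8 of the top 10 held 6.07% to 6.53% on bran plus cellulose and 5.63% to 6.13% on GlcNAc, ranges that overlap. PDE_09832 stood at 65819.5, 72845 and 68866 FPKM on bran plus cellulose and at 92946, 93938 and 77643 on GlcNAc. PDE_09831 stood at 27328, 29663 and 26635 FPKM and at 37823, 40547 and 35063. Neither was called (limma adjusted p = 0.397 and 0.213), although the libraries of the media did not overlap. On glucose, whose libraries enter the shared spread, the 3 deletion libraries had 651, 1351 and 3015 FPKM of PDE_09832.

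The largest log2 differences with all 6 libraries above 0 were those of PDE_09239 and PDE_09234 on the higher side. PDE_09239 had 3222, 3037 and 3777 FPKM on bran plus cellulose and 0.4, 0.84 and 1.89 FPKM on GlcNAc. All 3 bran plus cellulose libraries lay far above all 3 GlcNAc libraries (log2 difference 10.74 ± 0.833, SE, n = 3 and 3; limma adjusted p = 4.28e-08). PDE_09234 had 2169, 2057 and 2612 FPKM on bran plus cellulose and 1.41, 0.34 and 0.45 FPKM on GlcNAc (10.41 ± 0.919, limma adjusted p = 1.64e-07). Both belong to the run of 19 locus tags described below.

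On the lower side the largest were PDE_03475 and PDE_03172. PDE_03475 had 1.78, 1.74 and 1.40 FPKM on bran plus cellulose and 1954, 1773 and 1122 FPKM on GlcNAc (log2 difference -9.22 ± 0.817, SE; limma adjusted p = 1.7e-07). PDE_03172 had 4.89, 5.75 and 5.63 FPKM on bran plus cellulose and 516, 514 and 366 FPKM on GlcNAc (-6.17 ± 0.505, limma adjusted p = 7.04e-08). In both, GlcNAc replicate 3 was the lowest of its group and still far above every bran plus cellulose library. The deletion strain on glucose had 0.17 to 0.52 FPKM of PDE_03475 and 4.48 to 5.09 FPKM of PDE_03172, so that GlcNAc was the single medium of this strain with high values of these genes.

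In units of FPKM the largest called gains on bran plus cellulose were in PDE_00509 and PDE_09377, both also abundant on glucose. PDE_00509 had 10617, 9914 and 11595 FPKM on bran plus cellulose, 252, 297 and 331 FPKM on GlcNAc and 12559.7 to 17061 FPKM on glucose. Its level on GlcNAc was the low one of the 3 media (bran plus cellulose against GlcNAc, log2 difference 5.19 ± 0.236, SE; limma adjusted p = 9.94e-11). PDE_09377 had 8838, 7799.9 and 9664 FPKM on bran plus cellulose and 626, 644 and 601 FPKM on GlcNAc (3.81 ± 0.2, limma adjusted p = 4.58e-10). The largest called losses were in PDE_05075 and PDE_05986. PDE_05075 had 3219, 3065 and 3338 FPKM on bran plus cellulose and 8646, 7654 and 9136 FPKM on GlcNAc (-1.40 ± 0.135, limma adjusted p = 3.1e-07). PDE_05986 had 1491, 1647 and 1763 FPKM against 4913, 5841 and 5225 FPKM (-1.70 ± 0.0988, limma adjusted p = 1.3e-09). The media did not overlap in any of these genes.

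Some genes were listed at 0 in all 3 libraries of a medium. An exact 0 may be a failed estimate, since 93 gene models had a 0 in 1 library beside a replicate above 10 FPKM in the same medium, so these genes are given by their values and no fold. Of the 1129 higher genes, 92 were listed at 0 in all 3 GlcNAc libraries, with a median of 8.74 FPKM on bran plus cellulose, and 41 of them averaged at least 10 FPKM there. Of the 1053 lower genes, 56 were listed at 0 in all 3 bran plus cellulose libraries, with a median of 7.20 FPKM on GlcNAc, and 22 averaged at least 10 FPKM. The wild type did not share most of the first kind: 61 of the 92 were above 0 in all 3 of its GlcNAc libraries and 20 were at 0 in all 3. Of the 56, 31 were at 0 in all 3 wild-type libraries on bran plus cellulose and 10 were above 0 in all 3.

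The most abundant of these genes was PDE_06802, at 2532, 2300.1 and 2216 FPKM on bran plus cellulose and listed at 0 in the 3 GlcNAc libraries (limma adjusted p = 7.31e-12). It had 2589.7 to 3858 FPKM on glucose and 259 to 379.7 FPKM in the wild type on GlcNAc. Next was PDE_09233, a member of the run of 19 tags, at 846, 756 and 1039.6 FPKM and listed at 0 on GlcNAc (limma adjusted p = 2.73e-07). The reverse held for PDE_08440, which bran plus cellulose libraries listed at 0 and which stood at 194, 232 and 253 FPKM on GlcNAc (limma adjusted p = 3.47e-11), with 271 to 288 FPKM on glucose. PDE_00845 was listed at 0 on bran plus cellulose and stood at 62.7, 80.7 and 66.4 FPKM on GlcNAc (limma adjusted p = 2.58e-10). The wild type showed the opposite pattern of PDE_00845, at 15.7, 11.7 and 26.2 FPKM on bran plus cellulose and listed at 0 on GlcNAc.

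Some of the genes with the largest differences had neighbouring locus tag numbers. The longest run of consecutive numbers in which every gene was higher by at least 1 log2 unit covered 19 genes, PDE_09226 to PDE_09244. Their group means ranged from 126 to 4832 FPKM on bran plus cellulose and from 0 to 28.5 FPKM on GlcNAc, and in all 19 the media did not overlap. Their log2 differences ranged from 2.12 to 11.65 with a median of 9.09, where the median of all genes was -0.147. Of the 48 genes higher by at least 6 log2 units, 16 lay in this run. The run was picked as the longest, so its length and values are a description. Locus tags are usually numbered along the assembly, but the files give no coordinates, and nothing here places these genes.

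PDE_09235 had the largest difference of the run on this scale, with 4649, 4893 and 4954 FPKM on bran plus cellulose and 0.89, 0 and 0.79 FPKM on GlcNAc (log2 difference 11.65 ± 1.24, SE; limma adjusted p = 1.12e-06). Its 0 in 1 library means that the size of this difference rests partly on the pseudocount, and so does its rank: with a pseudocount of 0.1 PDE_09236 (14.31) and PDE_09241 (13.74) exceeded it (13.41). At the edges of the run the differences were smaller: PDE_09227 had 127, 130.5 and 121 FPKM on bran plus cellulose and 23.9, 29.4 and 32.0 FPKM on GlcNAc. PDE_09226 differed in pattern from the genes after it. It stood at 1251, 1147 and 1209 FPKM on bran plus cellulose, at 12.6, 10.3 and 11.6 FPKM on GlcNAc, and also low on glucose, at 8.32 to 9.80 FPKM.

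On glucose the other 18 genes of the run varied widely between replicates of the deletion strain. Replicate 1 was the lowest of the 3 glucose libraries in all 18, and the mean of replicates 2 and 3 was 1.73 to 473 times its value, with a median of 22.9. PDE_09239, for example, had 198, 3746 and 4144 FPKM on glucose. These libraries are in neither group compared, but they enlarge the shared estimate of error. Without glucose replicate 1, in a fit added after seeing the data, the limma adjusted p of PDE_09239 was 8.30e-12 in place of 4.28e-08. The difference was the same. With only the 6 libraries compared, and so fewer libraries fitted, the limma adjusted p of PDE_09239 was 8.27e-07. Wild-type replicate 3 on bran plus cellulose was the lowest of its group in 16 of the 18 genes, PDE_09239 having 2626, 2215 and 909.8 FPKM there.

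The wild type also had higher values of the run on bran plus cellulose, by less. Its log2 differences ranged from 1.46 to 6.76 with a median of 2.68, and 18 of 19 were called higher by at least 1 unit (13.3% of all genes were). On GlcNAc its group means ranged from 5.72 to 383 FPKM with a median of 127, against a median of 0.75 FPKM in the deletion strain, while on bran plus cellulose the medians were 725 and 946 FPKM. The difference between the strains, tested as an interaction, was called in 16 of 19 genes, all in the direction of a larger difference in the deletion strain (26.7% of all genes had an interaction called in that direction). The deletion-strain difference that chose this run and those below is a term of the interaction. Nothing is therefore read from such counts against all genes. PDE_09239 had 332, 324 and 233 FPKM in the wild type on GlcNAc (interaction 8.17 ± 1.18 log2 units, SE; limma adjusted p = 2.62e-05). Of the 3 genes not called, PDE_09226 had nearly equal differences in both strains (6.59 and 6.76, interaction -0.17 ± 0.162, limma adjusted p = 0.377), but with equal FPKM totals its interaction was called (-0.39, limma adjusted p = 0.0419). PDE_09227 (interaction 0.66 ± 0.488, limma adjusted p = 0.249) and PDE_09242 (4.10 ± 2.15, limma adjusted p = 0.107) were called in the fit without glucose replicate 1 (limma adjusted p = 0.0307 and 6.99e-08). That fit was added after seeing the data. With array weights both were called (limma adjusted p = 0.00428 and 0.00923), and with only the libraries compared PDE_09242 was (limma adjusted p = 2.88e-06).

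A second run, PDE_00790 to PDE_00807, held 18 consecutive numbers and went opposite ways in the strains. It is the next longest and its members are described after their values were seen. In the deletion strain its group means ranged from 44.2 to 675 FPKM on bran plus cellulose and from 7.01 to 178 FPKM on GlcNAc, without overlap in any of the 18 genes, and its log2 differences ranged from 1.07 to 2.94 with a median of 2.02. The same genes in the wild type had 19.8 to 291 FPKM on bran plus cellulose and 52.9 to 1417 FPKM on GlcNAc, with log2 differences from -3.53 to 0.08 and a median of -1.84. Of the 18, 17 were called lower on bran plus cellulose in the wild type (27.6% of all genes). The interaction was called in all 18, with a more positive difference between the media in the deletion strain (26.7% of all genes).

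PDE_00806, which had the highest mean of this run on bran plus cellulose in the deletion strain, stood at 696, 716 and 613 FPKM there and at 95.7, 89.8 and 84.7 FPKM on GlcNAc (log2 difference 2.89; limma adjusted p = 1.14e-11). In the wild type it had 279.6, 264 and 251 FPKM on bran plus cellulose and 1417, 1411 and 1423 FPKM on GlcNAc (-2.42, limma adjusted p = 7.03e-11). The order of the media was thus turned round between the strains, in every library. PDE_00803 behaved alike, with 239.8, 297 and 231 FPKM against 54.9, 61.7 and 63.7 FPKM in the deletion strain and 62.6, 57.4 and 31.8 FPKM against 575, 544 and 592 FPKM in the wild type. On glucose the deletion strain had the lowest mean of all 6 groups in all 18 genes, at most 5.24 FPKM, so within this strain GlcNAc lay between the other media. The last gene, PDE_00807, was the exception to the turn: its wild-type values, 92.9, 77.2 and 92.4 FPKM on bran plus cellulose and 101, 65.6 and 83.2 FPKM on GlcNAc, overlapped. PDE_00805, the gene with the smallest difference (1.07, limma adjusted p = 0.00394), was not called with a pseudocount of 0.1 (limma adjusted p = 0.206).

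**Figure D2:**
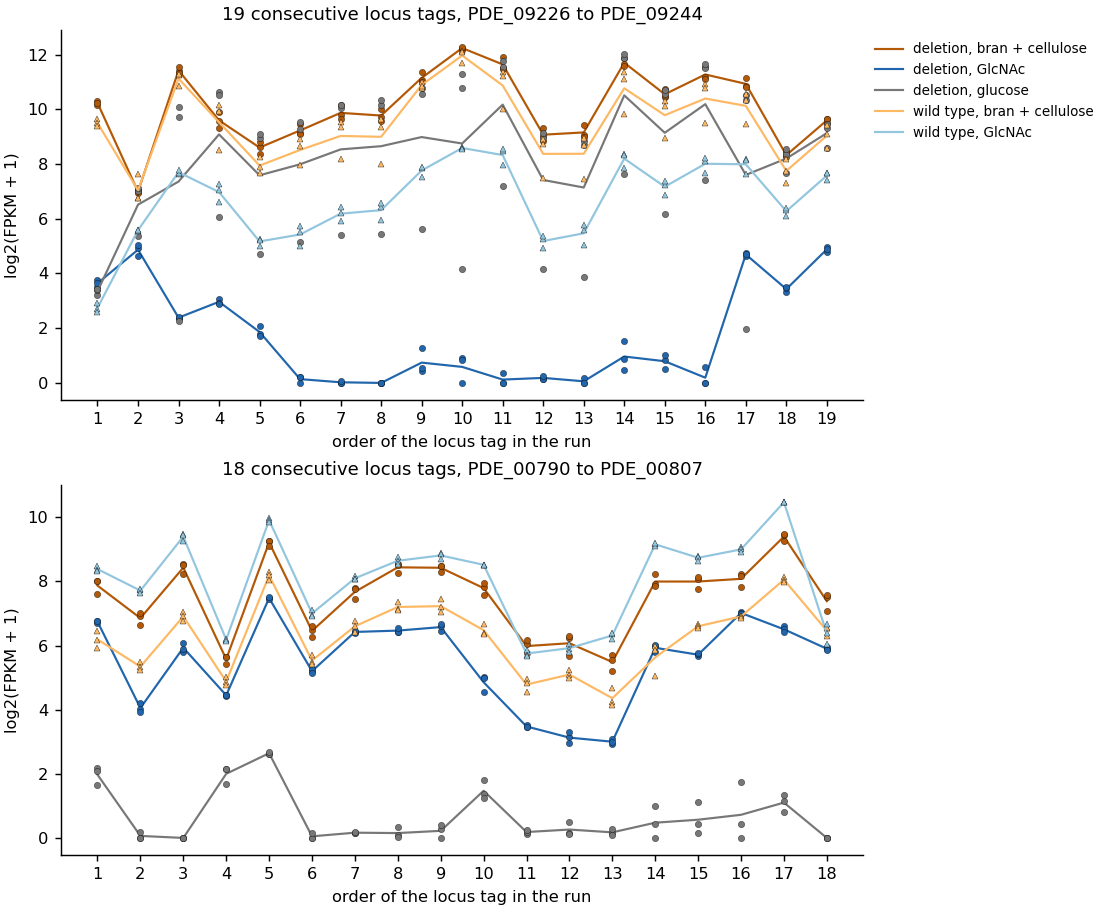
Levels, log2(FPKM + 1), of the genes of both runs in order of their locus tags (horizontal axis). Points are libraries (circles for the deletion strain, triangles for the wild type) and lines join the means of the 3 libraries. In the upper panel the deletion strain on GlcNAc lies far below all other groups from the third to the sixteenth tag, apart from glucose replicate 1 in some genes, and in the lower panel the deletion strain on glucose lies lowest and the wild type on GlcNAc highest in most genes.

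Shorter runs showed both kinds of pattern. PDE_01212 to PDE_01218, 7 genes, were higher on bran plus cellulose by 1.47 to 2.69 log2 units in the deletion strain and by 1.85 to 4.01 in the wild type, and 0 of 7 had an interaction called in the direction of the deletion-strain difference (26.7% of all genes). PDE_02113 to PDE_02117, 5 genes, were higher by 1.44 to 6.12 log2 units and all 5 were also higher by at least 1 unit in the wild type (13.3% of all genes). PDE_03275 to PDE_03279 were higher by 1.01 to 4.90 log2 units, and 3 of these 5 were called higher in the wild type (33.2% of all genes). PDE_09758 to PDE_09762, at 200.3 to 1104 FPKM on bran plus cellulose and 18.4 to 186 FPKM on GlcNAc, were higher by 1.23 to 3.36 log2 units, while 4 of these 5 were lower by at least 1 unit in the wild type (7.89% of all genes). In all, 33 runs of at least 3 genes held 142 of the higher genes, and 23 runs held 77 of the lower genes.

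The longest run on the lower side had 5 genes, PDE_08904 to PDE_08908. They had group means of 8.70 to 66.3 FPKM on bran plus cellulose and 77.1 to 219 FPKM on GlcNAc, with log2 differences from -3.10 to -1.52. PDE_08904 had 24.7, 32.6 and 29.6 FPKM on bran plus cellulose and 208, 229 and 219 FPKM on GlcNAc (limma adjusted p = 2.03e-07). In the wild type it had 18.6, 33.4 and 30.9 FPKM on bran plus cellulose, close to the deletion strain, and 10.7, 11.9 and 10.5 FPKM on GlcNAc. The interaction was called in all 5 genes, with a more negative difference between the media in the deletion strain (40.3% of all genes). On glucose the deletion strain had still higher means, from 116 to 457 FPKM. Where the next number was also tested, it was in the same list for 225 of 936 higher genes (24.0%, where 13.4% of all genes are in that list) and for 172 of 915 lower genes (18.8%, where 12.5% are).

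Seen against the other groups, genes stood apart in the deletion strain on GlcNAc more often than on bran plus cellulose. This held for both lists and for all genes tested, so it is not particular to the lists. Among the 1129 higher genes the median level was 5.55 on bran plus cellulose, 4.47 on glucose and 3.18 on GlcNAc in the deletion strain, all as log2(FPKM + 1), and 5.32, 4.84 and 4.67 in the wild type on the same media. The deletion strain on GlcNAc was the lowest of the 6 groups for 640 of these genes, and the deletion strain on bran plus cellulose was the highest for 258. Among the 1053 lower genes the medians were 3.92, 4.56 and 5.54 in the deletion strain and 4.26, 4.31 and 4.21 in the wild type. There the deletion strain on GlcNAc was the highest group for 825 genes, and on bran plus cellulose the lowest for 329. The wild type on GlcNAc was the highest group for 278 of the higher genes and the lowest for 345 of the lower genes. Of all 8455 genes, the deletion strain on GlcNAc was the lowest group for 1336 and the highest for 2837, and on bran plus cellulose for 803 and 614. The wild type on GlcNAc was the lowest for 2169 and the highest for 1753, and on bran plus cellulose for 757 and 918. On glucose these counts were 1897 and 1898 in the deletion strain and 1493 and 435 in the wild type. The contrast between GlcNAc and bran plus cellulose was thus not particular to the deletion strain. The lists were chosen on the deletion strain's libraries on bran plus cellulose and GlcNAc, which enlarges their distance there.

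Within the deletion strain, glucose lay between the other media for 684 of the 1053 lower genes and for 509 of the 1129 higher genes. Of the 684, 457 were nearer to bran plus cellulose than to GlcNAc, and of the 509, 268 were. Glucose exceeded both media for 338 of the higher genes and for 137 of the lower genes, and lay under both for 282 and 232. Of all 8455 genes, glucose lay between for 3122 (1778 nearer to bran plus cellulose), above both for 2472 and under both for 2861. Both lists were chosen for a wide gap between the other media, which makes a place between them more likely, so these counts are a description.

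**Figure D3:**
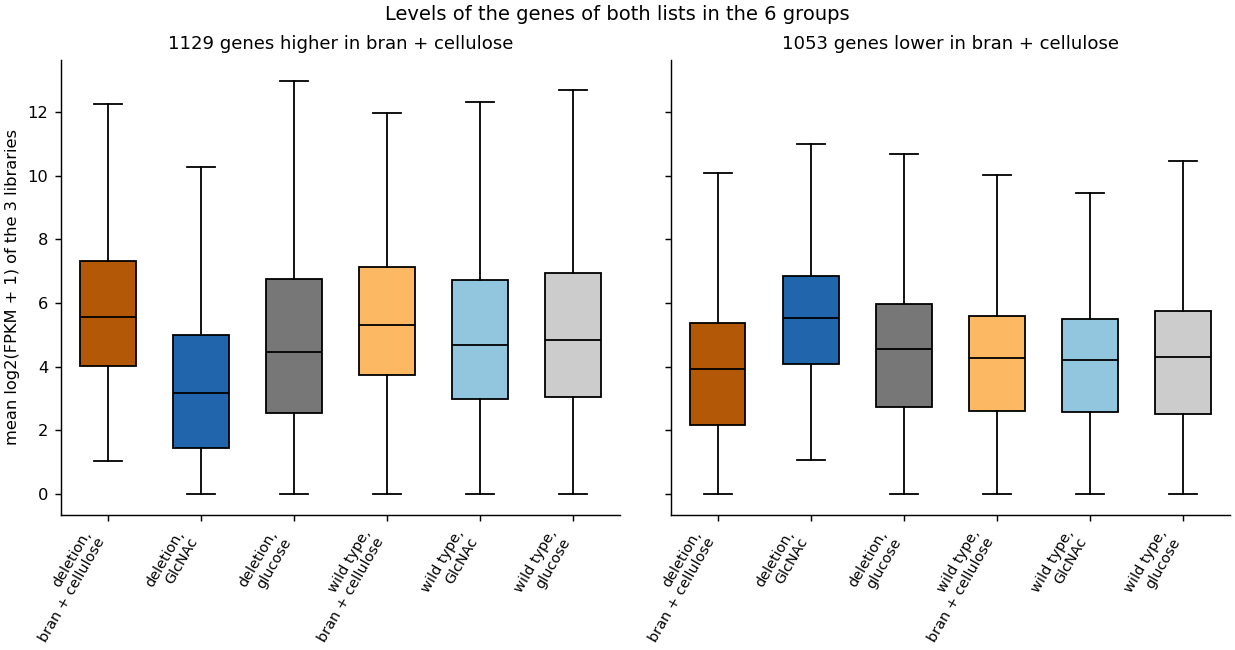
Levels, as the mean log2(FPKM + 1) of 3 libraries, of the 1129 higher genes (left) and the 1053 lower genes (right) in the 6 groups. Boxes span the quartiles with the median as a line, and whiskers reach the farthest gene within 1.5 times the box height. The deletion strain on GlcNAc has the lowest box on the left (median 3.18) and the highest on the right (median 5.54).

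The same change of medium in the wild type called 5140 genes (60.8%), 1789 of them past 1 log2 unit (21.2%, 1122 higher and 667 lower). Of the deletion strain's lists, 579 of the 1129 higher genes (51.3%) and 781 of the 1053 lower genes (74.2%) were not among those 1789. Of all genes, 78.8% were not. Such genes may still differ in the wild type by less. These wild-type libraries are separate from the 6 compared. Of the 1129 genes higher in the deletion strain, 385 were also higher by at least 1 unit in the wild type (34.1% of the first list and 34.3% of the wild type's 1122, where 13.3% of all genes are in the wild-type list), and 165 were lower (14.6%, where 7.89% of all genes are). Of the 1053 lower genes, 118 were lower in the wild type as well (11.2% of the list, where 7.89% of all genes are, and 17.7% of the wild type's 667) and 154 were higher (14.6% and 13.7%). The share of either list exceeded that of all genes in both wild-type directions, least for the 14.6% of the lower list against 13.3%. Across all genes, which are not independent replicates, the differences in the strains had a Pearson r of 0.214 and a Spearman rho of 0.0200.

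The difference between the strains in the response to the medium was itself called for 5668 genes (67.0%), and for 3117 by at least 1 log2 unit (36.9%). The called interaction was positive (bran plus cellulose minus GlcNAc higher in the deletion strain) for 2260 genes (26.7%) and negative for 3408 (40.3%). Relative to the median gene, 2860 were positive and 2756 negative, and with equal FPKM totals 1785 were positive and 4140 negative. Of the 1129 higher genes, 692 had a called interaction of at least 1 log2 unit in the same direction (15.4% of all genes). Their median levels in the wild type were 5.32 on bran plus cellulose and 5.63 on GlcNAc, against 5.73 and 3.01 in the deletion strain. Of the 1053 lower genes 802 had one (21.5% of all genes), with medians of 4.39 and 3.93 in the wild type and 4.01 and 5.69 in the deletion strain. The deletion-strain difference that chose both lists is a term of the interaction, so nothing is read from these counts against all genes, and the medians are a description. In both, the median levels of the strains differed by under 0.5 on bran plus cellulose and by over 1.5 on GlcNAc.

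**Figure D4:**
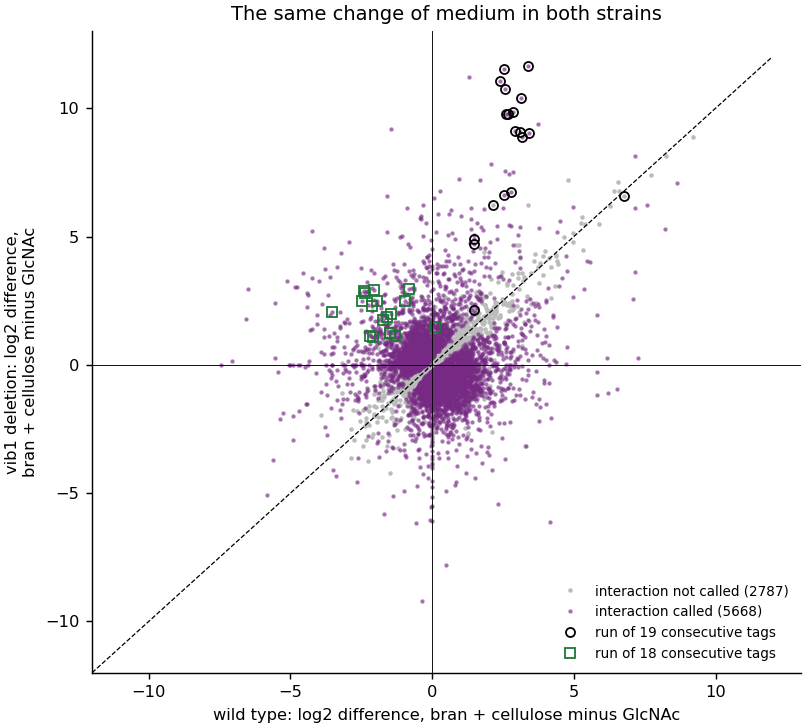
Log2 difference between bran plus cellulose and GlcNAc in the deletion strain (vertical axis) against the same difference in the wild type (horizontal axis), 1 point per gene tested, with the line of equal differences dashed. Purple points are the 5668 genes with an interaction called. The run of 19 tags (circles) lies mostly far above the line on the right, and the run of 18 tags (squares) lies above 0 vertically and mostly under 0 horizontally.

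Some genes changed in the same direction in both strains without a called interaction. Of 503 genes that differed by at least 1 log2 unit in the same direction in both strains, 385 higher and 118 lower, the interaction was not called for 242. It was not called for 2787 of all 8455 genes. The genes named here for the same change were chosen among those without a called interaction. Their interaction p-values were thus above the threshold by choice. A p that misses the threshold does not show equal differences, so the intervals matter: PDE_07945 had 3203, 3034 and 3261 FPKM on bran plus cellulose and 9.42, 10.3 and 10.5 FPKM on GlcNAc in the deletion strain (log2 difference 8.16 ± 0.165, SE; limma adjusted p = 1.47e-14). The wild type had 1683, 1515 and 2207 FPKM and 4.90, 5.10 and 4.72 FPKM (8.24 ± 0.165), so that the interaction was -0.08 ± 0.234 (limma adjusted p = 0.785). In both media the deletion strain had the higher values. PDE_00579 had 1609.5, 1519 and 1623 FPKM against 7.60, 8.61 and 8.92 FPKM in the deletion strain (7.40 ± 0.225, limma adjusted p = 1.78e-12), with an interaction of -0.33 ± 0.318 (limma adjusted p = 0.368). Glucose resembled GlcNAc more than bran plus cellulose in both genes, at 25.2 to 46.0 and 22.0 to 32.0 FPKM in the deletion strain.

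On the lower side PDE_08981 had 2.62, 4.14 and 5.03 FPKM on bran plus cellulose and 54.1, 67.1 and 52.5 FPKM on GlcNAc in the deletion strain (log2 difference -3.60 ± 0.316, SE; limma adjusted p = 1.17e-07). Its wild-type values were close, at 1.03 to 5.77 and 41.0 to 47.6 FPKM (interaction 0.05 ± 0.447, limma adjusted p = 0.924). PDE_00869 had 8.62, 7.19 and 5.87 FPKM against 94.8, 108 and 100.5 FPKM (-3.64 ± 0.246, limma adjusted p = 6.76e-09), but lower levels than the wild type in both media (33.7 to 84.7 and 339.6 to 377 FPKM). Its interaction of -0.78 ± 0.348 was not called (limma adjusted p = 0.0605) and was called under several alternatives given in the closing section. PDE_09377, already described, also had nearly the same difference in both strains (3.81 and 3.74, interaction 0.07 ± 0.283, limma adjusted p = 0.849).

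Another 319 genes went opposite ways by at least 1 log2 unit in each strain. All had the interaction called (67.0% of all genes). Differences called in opposite directions make such a call nearly certain, so nothing is read from this count. The 165 that were higher on bran plus cellulose in the deletion strain had median levels of 5.17 on bran plus cellulose and 2.93 on GlcNAc there, against 4.60 and 7.0 in the wild type. The 154 that were lower had 4.44 and 6.04 in the deletion strain and 4.87 and 3.34 in the wild type. PDE_05065 had 166, 192 and 48.0 FPKM on bran plus cellulose and 9.49, 8.79 and 11.7 FPKM on GlcNAc in the deletion strain (log2 difference 3.42 ± 0.367, SE; limma adjusted p = 1.1e-06). In the wild type it had 38.6, 42.4 and 49.2 FPKM on bran plus cellulose and 564, 565 and 473 FPKM on GlcNAc (-3.59 ± 0.367). On bran plus cellulose only deletion replicate 3 lay within the wild-type range, replicates 1 and 2 above it. The deletion-strain difference was 4.04 without replicate 3, 3.16 without replicate 1 and 3.05 without replicate 2. On GlcNAc every deletion library lay far under every wild-type library.

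Among genes above 0 in all 12 libraries of both strains, PDE_01479 had the largest interaction on the higher side and PDE_01113 the next, and in both replicate 3 on bran plus cellulose lay far under the other replicates. PDE_01113 had 100.2, 76.4 and 3.48 FPKM on bran plus cellulose and 0.45, 0.56 and 0.24 FPKM on GlcNAc (log2 difference 4.54 ± 0.881, SE; limma adjusted p = 3.51e-04, or 5.97 and 1.84e-07 without that replicate). Its difference was 3.72 without replicate 1 and 3.92 without replicate 2 (limma adjusted p = 0.00222 and 0.00245). With only the libraries compared the limma adjusted p was 0.0239. The wild type had 18.8, 8.40 and 38.8 FPKM against 294, 295 and 239.6 FPKM (interaction 8.36 ± 1.25, limma adjusted p = 3.56e-05). PDE_01479 had 52.6, 24.0 and 2.91 FPKM against 1.07, 1.30 and 1.32 FPKM (2.96 ± 0.768, limma adjusted p = 0.00327, or 4.04 and 4.05e-05 without that replicate). Its difference was 2.15 without replicate 1 and 2.7 without replicate 2 (limma adjusted p = 0.0195 and 0.0153). With only the libraries compared the limma adjusted p was 0.0373. Its wild-type values were 2.30, 2.39 and 18.9 FPKM against 496, 526 and 608 FPKM (interaction 9.45 ± 1.09, limma adjusted p = 2.83e-06). Of the 2182 genes in both lists, 8 had replicate 3 on bran plus cellulose more than 3 log2 units nearer to the GlcNAc side than the mean of replicates 1 and 2. This was counted for replicate 3 alone, so it does not show that this replicate differs from the others.

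In the opposite direction, PDE_01884 had 11.2, 7.31 and 12.4 FPKM on bran plus cellulose and 159, 187 and 218 FPKM on GlcNAc in the deletion strain (log2 difference -4.08 ± 0.184, SE; limma adjusted p = 9.77e-11). The wild type had 55.1, 37.9 and 38.0 FPKM against 8.98, 9.21 and 9.0 FPKM, so the order of the media was reversed (interaction -6.21 ± 0.261, limma adjusted p = 6.39e-11). PDE_08416 had 8.44, 9.34 and 10.3 FPKM against 71.5, 68.7 and 83.6 FPKM in the deletion strain (-2.87 ± 0.243, limma adjusted p = 7.93e-08), and 12.2, 9.20 and 6.48 FPKM against 1.5, 0.21 and 0.97 FPKM in the wild type. In that gene the strains overlapped on bran plus cellulose and differed on GlcNAc. PDE_09986 differed in both media, with 5.88, 3.56 and 4.87 FPKM against 31.3, 25.5 and 21.1 FPKM in the deletion strain (-2.23 ± 0.165, limma adjusted p = 1.81e-08) and 59.4, 52.4 and 49.1 FPKM against 7.47, 8.18 and 5.80 FPKM in the wild type.

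**Figure D5:**
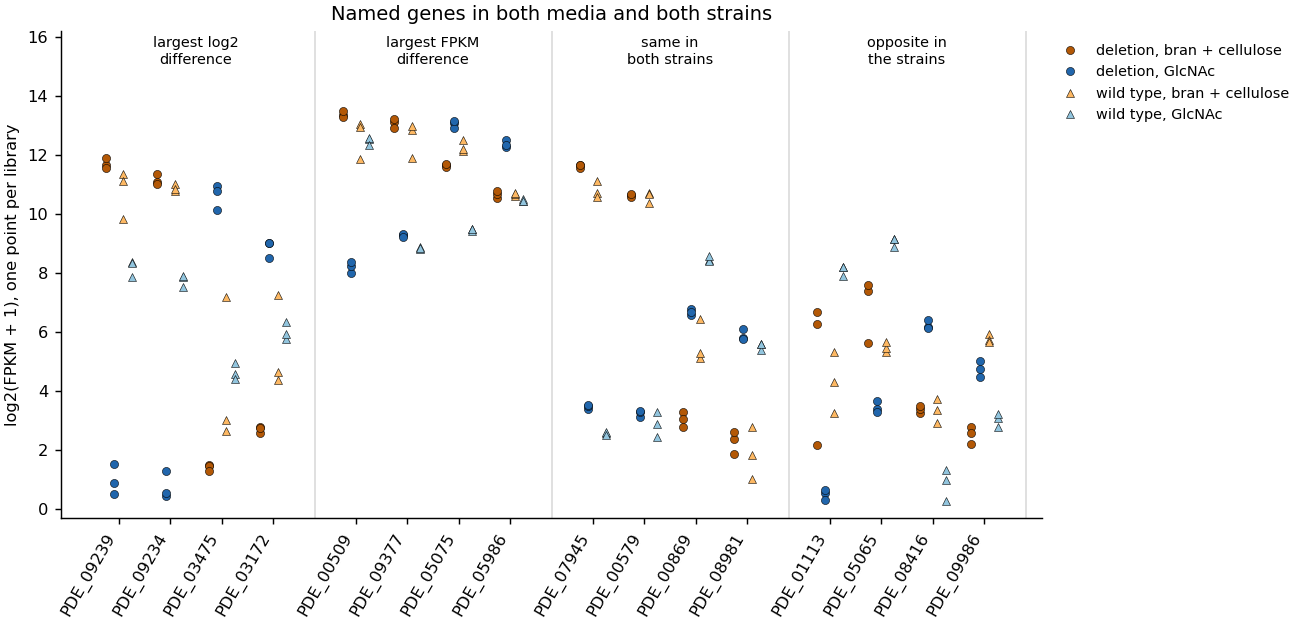
Levels, log2(FPKM + 1), of 16 named genes in the 12 libraries of both strains on both media, 1 point per library, in 4 groups by the question that chose them. For the pair of genes at the left the deletion strain on GlcNAc lies under 2, with the wild type on GlcNAc between the extremes, and for the genes at the right the media change order between the strains.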

How the data were processed

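Libraries held short tags of polyadenylated RNA, captured with oligo(dT) and made with the enzymes NlaIII and MmeI, per the labels' protocols. The values are FPKM per gene model and library as the authors deposited them, per the file headers. Not given in the sources used here are the step from tags to FPKM, the aligner, the genome build and the gene model lengths. Dividing by length affects comparisons between genes and leaves the FPKM ratio of 1 gene between libraries unchanged. It does affect how far the pseudocount shrinks the log2 difference of a gene, and whether the gene passes the filter.

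Groups were taken from the titles, and every column of the table was assigned to a sample. A gene model was tested if 3 or more of the 18 libraries had 1 FPKM or more of it (8455 were, 721 were not). One mean for each of the 6 groups was fitted to log2(FPKM + 1), a scale that understates the differences of low genes, using limma 3.58.1 under R 4.3.3, whose eBayes step used the trend and robust options on 12 residual degrees of freedom. Two-sided p-values were adjusted by the Benjamini-Hochberg method over all genes tested, and genes were called at an adjusted p under 0.05. The contrasts were bran plus cellulose minus GlcNAc in each strain, and the interaction, deletion strain minus wild type. P-values measure the spread between these libraries, which may be technical. Groups wholly at 0 add no spread, which can make p-values too small. Shares of FPKM were compared with an exact permutation test (scipy 1.17.1), and plots were drawn with matplotlib 3.10.9. The fit was tested on simulated data.

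Genes named were called, averaged 10 FPKM or more in the higher medium and had no overlap between the media in the deletion strain. At most 2 each way were taken for the largest log2 difference, the largest FPKM difference, genes listed at 0 in a medium, the largest interaction, the same change in both strains, and opposite changes, with the longest run of consecutive locus tags each way. For the same change in both strains, the interaction had to be not called. Lists of gene functions could not be used, as no ID was paired with a name. The comparison, rules and lists were chosen with earlier results of these data known. Alternatives tried were other pseudocounts (0.1, 5), other filters (none, or 10 FPKM), median-ratio, quantile and equal-total scaling, limma without trend and robust, array weights, only the libraries compared, a replicate block, and leaving out each library.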

Additional observations from a re-analysis of the deposited data

Results flagged for a closer look

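The response to the medium differed between the strains for 5668 of 8455 genes by the interaction test (limma adjusted p under 0.05), and the named genes that met this test are given with their interaction, deletion strain minus wild type, in log2 units. The interaction was positive for PDE_01479 (9.45), PDE_01113 (8.36), PDE_09239 (8.17), PDE_09234 (7.28), PDE_05065 (7.01) and PDE_00509 (5.05). It was negative for PDE_03475 (-8.86), PDE_01884 (-6.21), PDE_03172 (-5.59), PDE_08416 (-5.33), PDE_09986 (-4.98), PDE_05075 (-4.23) and PDE_05986 (-1.90). Its sign does not tell which strain responded more. PDE_03475 differed by -9.22 log2 units in the deletion strain and -0.36 in the wild type, and PDE_01479 by 2.96 and -6.48. For genes listed at 0 in a group only the limma adjusted p of the interaction is given, 1.11e-09 for PDE_06802, 2.09e-04 for PDE_09233, 9.30e-10 for PDE_08440 and 6.04e-11 for PDE_00845. PDE_00509 was similar in the wild type on both media (8558, 8009 and 3714 FPKM on bran plus cellulose, 6002, 6056 and 5205 FPKM on GlcNAc). PDE_05075 was higher on bran plus cellulose in the wild type (4496, 4761 and 5875 FPKM) than on GlcNAc (716, 687 and 710.1 FPKM). For PDE_03475 and PDE_03172, wild-type replicate 3 on bran plus cellulose, at 143 and 150.1 FPKM, lay far above replicates 1 and 2, at 5.28 to 7.04 and 19.8 to 24.0 FPKM.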

How the results depend on the processing

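Every count of called genes stayed within 1.5 times its reported value under every alternative run. The 2182 genes differing by at least 1 log2 unit in the deletion strain ranged from 1591 with a pseudocount of 5 to 2391 with 0.1, and from 2159 to 2209 when each of the 6 libraries was left out. The 5842 called genes ranged from 5502 to 5584 without each library, where fewer libraries were fitted. Without glucose replicate 1 and wild-type replicate 3 on bran plus cellulose, chosen after seeing the data, they numbered 6160. Interaction counts were 5402 to 5759 without each of the 12 libraries. The same direction and threshold held for 1899 of the 2182 genes after median-ratio rescaling and for 2049 with equal FPKM totals. No named gene changed direction. The interaction of PDE_00869 was called with a pseudocount of 0.1 (limma adjusted p = 0.0361), quantile normalization (0.0422), equal totals (0.0173), array weights (0.0410) and without deletion replicate 1 or wild-type replicate 1 or 2 on bran plus cellulose (0.0460, 0.0136 and 0.0313); the cause was not tested. The share of FPKM held by the top genes turned round between the top 10 and the top 100: bran plus cellulose was lower by 3.54 percentage points for the first (range -4.04 to -3.13 without each library) and higher by 1.09 for the second (exact permutation p = 0.2). The replicate block gave 2184 genes by at least 1 log2 unit and 5842 called. Replicate numbers share no stated origin, and residuals of same-numbered libraries correlated at -0.0283, -0.0121 and 0.0342 in the deletion strain and 0.0092, 0.082 and 0.1814 in the wild type, not all above 0.1, so the block is no pairing. Depth is unknown, so no detection limit can be given.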
